A study of Caenorhabditis elegans with 2 samples.

Results

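The mitochondrial genome of Caenorhabditis elegans holds 36 annotated genes, and these are described here across every call that ChIP-seq of the protein ZK546.5 gave on that genome. All genes annotated on the mitochondrial chromosome of build ce11 were taken, 36 of 46926 annotated genes, and none was chosen by its signal. They are 12 protein-coding genes, 22 transfer RNA (tRNA) genes and 2 ribosomal RNA (rRNA) genes, all on the + strand of a circle of 13794 bp, which is 0.0138% of the assembled genome.

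ChIP-seq recovers DNA that is bound to a chosen protein, here from whole L3 larvae of both sexes, with the DNA broken by sonication. Per the labels, the worms were strain OP231, which carries the unc-119(ed3) III allele and the transgene wgIs231, from which ZK546.5 is made with GFP-FLAG at its C-terminal end; its promoter, and the tissues in which it is active, are not stated in those labels. There were 2 biological replicates of 1 group, so no comparison between conditions was possible and no test was made. Cells of all tissues were mixed, and no expression was measured against which the label could be checked.

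Mitochondrial DNA (mtDNA) is present in many copies per cell and lies in the matrix of the mitochondrion, apart from the nuclear chromosomes. Its protein-coding genes make core subunits of the respiratory chain and ATP synthase, and its tRNA and rRNA genes supply the translation apparatus of the organelle. The nematode circle is compact, is read in 1 direction, and has an AT-rich non-coding region that is counterpart to the control region of other animals.

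Each deposited list gave calls, meaning an interval, a summit position within it and a signal value, which is the caller's own measure of strength. The signal scale differs between lists, so values are compared within a list, by rank with 1 as the strongest. There was a list for each replicate, a pooled list from both, and a thresholded set of 261 peaks drawn from the pooled list. The first 3 ended at exactly 30000 calls each, the files gave no read numbers, and the sequencing depth is unknown. Values from a strain without the tag were not analysed here, and whether such a strain would give these calls was not tested.

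The sequences at the 5 strongest pooled calls are shown because they are the places on the circle with most signal, each as the 101 bp around its summit on the + strand of ce11. They lie in CYTB (chrM:5549-5649), ND4 (chrM:6676-6776), ND5 (chrM:12277-12377), the large rRNA gene (chrM:10449-10549) and the small rRNA gene (chrM:1306-1406). Capitals mark unbroken runs of at least 12 A or T bases.
CYTB: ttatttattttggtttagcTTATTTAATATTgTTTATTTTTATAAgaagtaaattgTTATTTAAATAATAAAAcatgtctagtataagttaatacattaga
ND4: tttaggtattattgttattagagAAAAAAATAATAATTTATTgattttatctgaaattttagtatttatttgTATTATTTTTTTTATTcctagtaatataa
ND5: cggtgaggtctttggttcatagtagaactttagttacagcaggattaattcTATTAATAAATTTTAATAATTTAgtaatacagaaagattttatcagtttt
l-rRNA: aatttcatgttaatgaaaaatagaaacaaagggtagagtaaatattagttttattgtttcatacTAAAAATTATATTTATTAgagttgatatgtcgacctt
s-rRNA: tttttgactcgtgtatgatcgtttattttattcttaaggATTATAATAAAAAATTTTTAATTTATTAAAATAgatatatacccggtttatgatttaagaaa

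4 further sequences, with the same marking, show the AT-rich region and places without a call. The first surrounds the call inside the AT-rich region (chrM:13698-13794), and the next is the middle of the stretch of that region that no list covered (chrM:13448-13548). Another spans the tRNA-Ser(UCN), tRNA-Asn and tRNA-Tyr genes (chrM:1595-1762), which no call overlapped, and the last is the centre of the longest stretch without a pooled call, inside COX1 (chrM:8897-8997).
AT-rich region with call: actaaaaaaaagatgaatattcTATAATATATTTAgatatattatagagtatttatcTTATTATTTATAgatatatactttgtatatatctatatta
AT-rich region without call: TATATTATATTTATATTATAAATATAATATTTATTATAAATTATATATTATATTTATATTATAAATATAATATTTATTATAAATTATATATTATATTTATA
tRNA genes without call: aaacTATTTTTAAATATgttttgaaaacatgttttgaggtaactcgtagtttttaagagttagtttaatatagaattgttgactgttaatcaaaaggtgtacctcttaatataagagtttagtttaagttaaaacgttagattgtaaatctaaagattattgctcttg
COX1 without call: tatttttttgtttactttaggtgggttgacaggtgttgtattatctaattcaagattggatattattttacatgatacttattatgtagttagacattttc

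The circle was among the most strongly called parts of the genome. It held 26 of the 30000 pooled calls (0.0867%), at ranks from 10 to 158 with a median of 35.5, and all 26 were in the thresholded set, where they made up 9.96% of the peaks; of all pooled calls, 0.87% were thresholded. Replicate 1 had 19 mitochondrial calls, at ranks from 1 to 56 with a median of 27. Replicate 2 had 29, at ranks from 19 to 2105 with a median of 49. Among the 50 strongest calls, 18 of the pooled list, 18 of replicate 1 and 15 of replicate 2 were mitochondrial. The strongest call of the whole of replicate 1 was in ND4 (signal 660.4), just ahead of the call in CYTB (659.8), and the highest nuclear call of that list had a signal of 636. In replicate 2 the highest nuclear call (774) was above every mitochondrial one, of which the strongest was in ND5 (381).

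**Figure D1:**
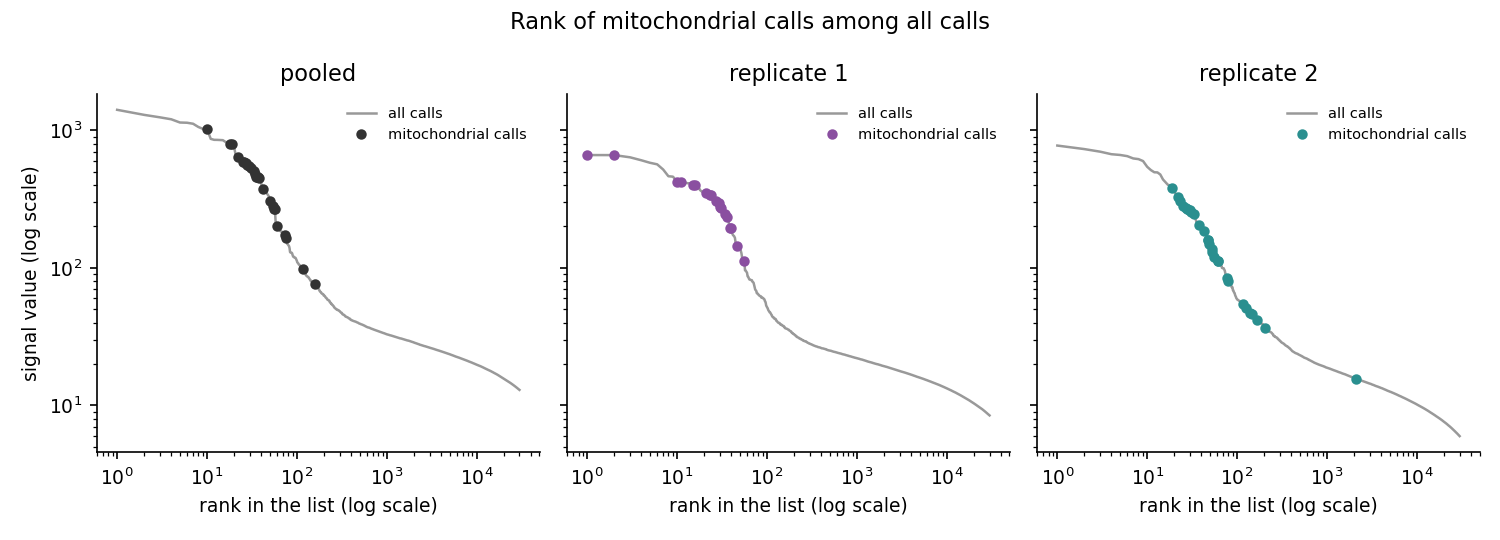
Signal value against rank, both on log scales, for all calls of the pooled list and of each replicate (grey line), with the mitochondrial calls as points. The points lie on the steep upper part of each curve, at ranks 10 to 158 in the pooled list, 1 to 56 in replicate 1 and, with 1 call apart at rank 2105, in the upper part of replicate 2.

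The mitochondrial calls also differed from most other calls in width. In the pooled list nearly all calls had a fixed width of 344 bp, and 0.214% of the nuclear calls did not. Of the 26 mitochondrial calls 23 had another width, from 155 to 619 bp over all 26 with a median of 324.5 bp. The mitochondrial calls of 344 bp were the weakest of the circle in that list, at signals of 164, 98.1 and 75.7. The nuclear peaks of the thresholded set had another width in 58 of 235 cases (24.7%). Their median signal was 80.3, against 458 for the mitochondrial calls. Widths at nuclear peaks of like signal were not compared. In 25 distinct intervals the pooled calls covered 54.2% of the circle, against 35.5% in replicate 1 and 73.0% in replicate 2. Bases under calls in both replicates made up 33.3% of the circle. Of the bases that replicate 1 covered, 93.9% were also covered by replicate 2, and 45.6% the other way round.

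**Figure D2:**
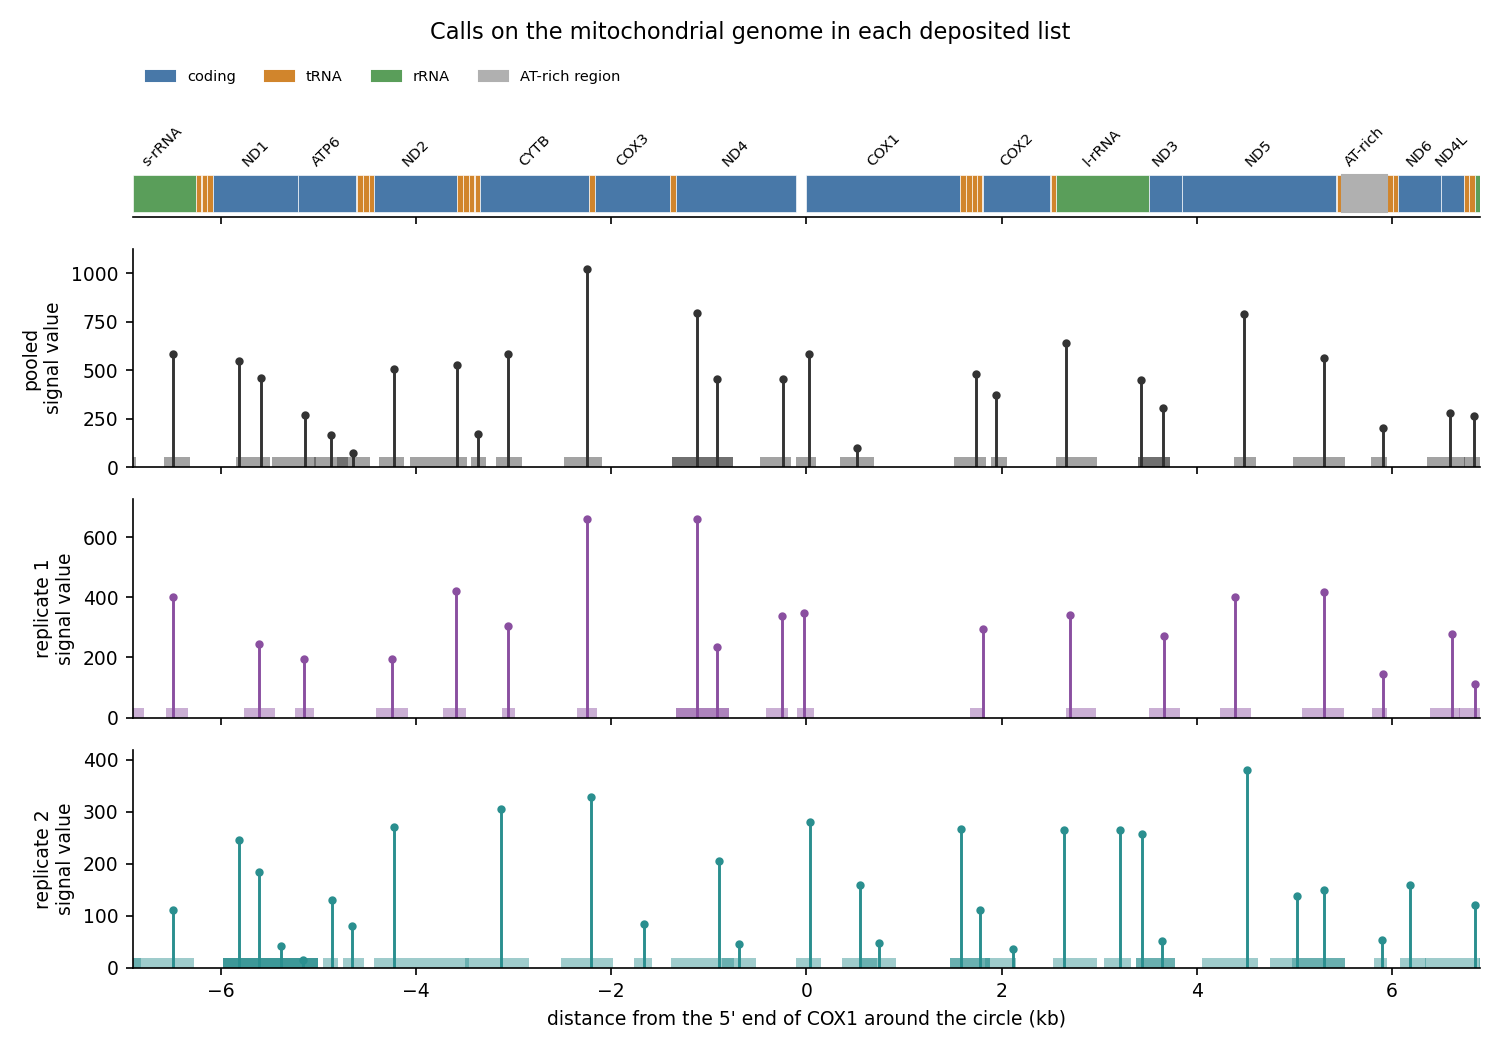
Map of the circle as distance from the 5′ end of COX1 in kb, with genes by class and the AT-rich region in the upper row, and the calls of the pooled list and both replicates in the rows under it. Horizontal bars are call intervals and vertical lines reach from the summit to the signal value, on a scale of its own in each row; CYTB and ND4 have the highest lines in the pooled list and in replicate 1, and ND5 in replicate 2.

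Calls overlapped 31 of the 36 genes in the pooled list, where a single interval spanned up to 6 genes, so genes are not independent of each other. Replicate 1 overlapped 23 genes and replicate 2 overlapped 30. Over all 46926 genes, the thresholded peaks, which on this circle are the pooled calls, overlapped 0.503%, the calls of replicate 1 overlapped 32.6% and those of replicate 2 overlapped 33.1%. A summit lay inside 15 of the 36 genes in the pooled list, against 0.175% of all genes for the thresholded peaks. In replicates 1 and 2 a summit lay inside 11 and 16. The share of all genes holding a summit was not computed for these longer lists, so the 0.175% does not apply to them. All 12 coding genes and both rRNA genes were overlapped in all 3 lists, together with 9 tRNA genes. The 5 genes overlapped in no list were all tRNA genes.

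Of the genes for complex I, the NADH dehydrogenase that passes electrons from NADH into the respiratory chain, ND4 and ND5 had the strongest calls in the pooled list. ND4 (chrM:6506-7735) had a strongest overlapping signal of 798 in the pooled list, 660 in replicate 1 and 205 in replicate 2, at ranks 18, 1 and 38, and pooled calls covered 72.8% of it. It held 3 summits in the pooled list, 3 in replicate 1 and 2 in replicate 2. ND5 (chrM:11691-13274) had signals of 791, 420 and 381 in the same order, at ranks 19, 11 and 19. ND4 thus led replicate 1 and ND5 led replicate 2, where ND4 was below ND2, ND3 and ND1. ND3 was above it there only through a call with its summit in the large rRNA gene. In ND5 the pooled summits at positions 12327 (791) and 13144 (562) left the part between them uncovered, and 42.3% of the gene was under pooled calls.

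The other complex I genes had lower calls in the pooled list, but not in each replicate: ND2 was just above ND5 in replicate 1. ND1 (chrM:1763-2638) gave signals of 550, 245 and 246 in the pooled list, replicate 1 and replicate 2, and ND2 (chrM:3418-4266) gave 528, 422 and 271. ND3 (chrM:11356-11691) gave 449, 273 and 256. The pooled and replicate 2 values came from calls whose summits were in the neighbouring large rRNA gene. The summit in ND3 itself had a signal of 306 in the pooled list and 51.4 in replicate 2. ND1, ND2 and ND3 each held a summit in every list. The adjoining genes ND6 (435 bp from position 113) and ND4L (chrM:549-782) shared a call in the pooled list (281) and in replicate 1 (279). In replicate 2 their strongest calls were separate, at 160 for ND6 and 120 for ND4L. The latter call had its summit in the small rRNA gene, and ND4L held none in that list. No pooled summit lay in ND6, and 32.4% of it was covered, while ND4L was covered completely.

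CYTB (chrM:4504-5616), which encodes cytochrome b of complex III, the step that hands electrons to cytochrome c, had the strongest call of the circle in the pooled list, and the next to ND4 and ND5 in replicates 1 and 2. Its strongest overlapping signal was 1023 in the pooled list at rank 10, 660 in replicate 1 at rank 2 and 329 in replicate 2 at rank 22. In the pooled list and in replicate 1 the summit was at position 5599, near the 3′ end of CYTB. In replicate 2 it was at 5642, in the tRNA-Leu(CUN) gene. A second pooled call in CYTB had its summit at 4783 (582), and the stretch between the intervals, chrM:4933-5365, had none.

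The 3 genes for complex IV, the cytochrome c oxidase that reduces oxygen, were the least covered coding genes in the pooled list, at 32.1% of COX1 (chrM:7845-9422), 29.7% of COX2 (chrM:9649-10344) and 9.11% of COX3 (chrM:5678-6445). COX1 had signals of 583, 347 and 280 in the pooled list, replicate 1 and replicate 2, from calls at its 5′ end. In replicate 1 that summit, at 7820, lay just outside the gene, in the intergenic region between ND4 and COX1 (chrM:7736-7844). A weaker call further into COX1 was at 8364 in the pooled list (98.1) and at 8391 in replicate 2 (159), with none in replicate 1 there. COX2 was reached by a pooled call (479) whose summit was in tRNA-Asp, and its own pooled summit, at 9783, had a signal of 374. Neither replicate had a summit within 50 bp of that one. In replicate 1 a call of 294 with its summit at 9653 covered 2.44% of COX2. In replicate 2 the summit inside COX2, at 9958, had a signal of 36.7 at rank 206. COX3 was overlapped at its 5′ edge by the CYTB call, and the sole summit inside it in any list was a replicate 2 call of 83.9.

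ATP6 (chrM:2634-3233), a subunit of the membrane part of ATP synthase, held the 2 weakest pooled calls apart from the one in COX1. Its 3 pooled summits, at 2711, 2975 and 3203, had signals of 270, 164 and 75.7, the last at rank 158. They covered the whole gene. In replicate 1 there was 1 call, of 194, and in replicate 2 the gene held 3 summits, of which the strongest was 130.

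Both rRNA genes, whose RNAs form the core of the small and large mitochondrial ribosomal subunits, held summits in every list. The small rRNA gene (chrM:898-1594) had signals of 586, 402 and 120 in the pooled list, replicate 1 and replicate 2. The large rRNA gene (chrM:10403-11355) had 642, 341 and 265. Of the rRNA bases, 52.4% were covered in the pooled list, 42.5% in replicate 1 and 91.8% in replicate 2. In the small rRNA gene the leading summit of replicate 1, at 1358, was matched by a replicate 2 summit at 1354 with a signal of 112.

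The tRNA genes, which decode the organelle's messages and are short, were overlapped more often than they held a summit. Of 22, calls overlapped 17 in the pooled list, 9 in replicate 1 and 16 in replicate 2. Summits lay in 3 of them in the pooled list, tRNA-Glu (266), tRNA-Phe (174) and tRNA-Asp (479), in 0 in replicate 1, and in 3 others in replicate 2, tRNA-Leu(CUN), tRNA-Cys and tRNA-Gly. No tRNA gene thus held a summit in more than 1 list. For tRNA-Glu this rests on the gene border, as the gene ends at position 897. Its pooled summit was at 893, and the replicate summits, at 900 and 899, fell in the adjoining small rRNA gene. Taken over bases, tRNA genes were covered by 64.8% in the pooled list, 35.1% in replicate 1 and 66.6% in replicate 2, beside 53.2%, 33.7% and 72.1% for coding genes. Pooled summits lay at a median of 230 bp from the nearest tRNA gene, with 219 bp in replicate 1 and 274 bp in replicate 2, beside 288 bp for every base of the circle. Within 100 bp lay 8 of 26 pooled summits (30.8%), 5 of 19 in replicate 1 (26.3%) and 7 of 29 in replicate 2 (24.1%), beside 23.6% of bases, which is near the replicate shares. To the nearest 5′ end of a coding gene the median was 230.5 bp in the pooled list, 250 bp in replicate 1 and 300 bp in replicate 2, beside 306 bp for every base. Within 100 bp of such an end lay 26.9% of pooled summits, 21.1% in replicate 1 and 17.2% in replicate 2, beside 17.5% of bases.

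The 5 tRNA genes without a call lay in 2 places. tRNA-Ser(UCN), tRNA-Asn and tRNA-Tyr stand side by side between the small rRNA gene and ND1, in a stretch free of calls in any list at chrM:1575-1866 (292 bp). tRNA-Pro and tRNA-Val are at the first bases of the linear reference, in a stretch free of calls in any list at chrM:1-132. The circle is opened there in the reference, and the call at the other end stopped at the last base, 13794, in all 3 lists. Whether opening the circle there altered the calls was not tested. tRNA-Ala, which borders the AT-rich region on the other side, was covered completely in all 3 lists, by the call with its summit in ND5.

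**Figure D3:**
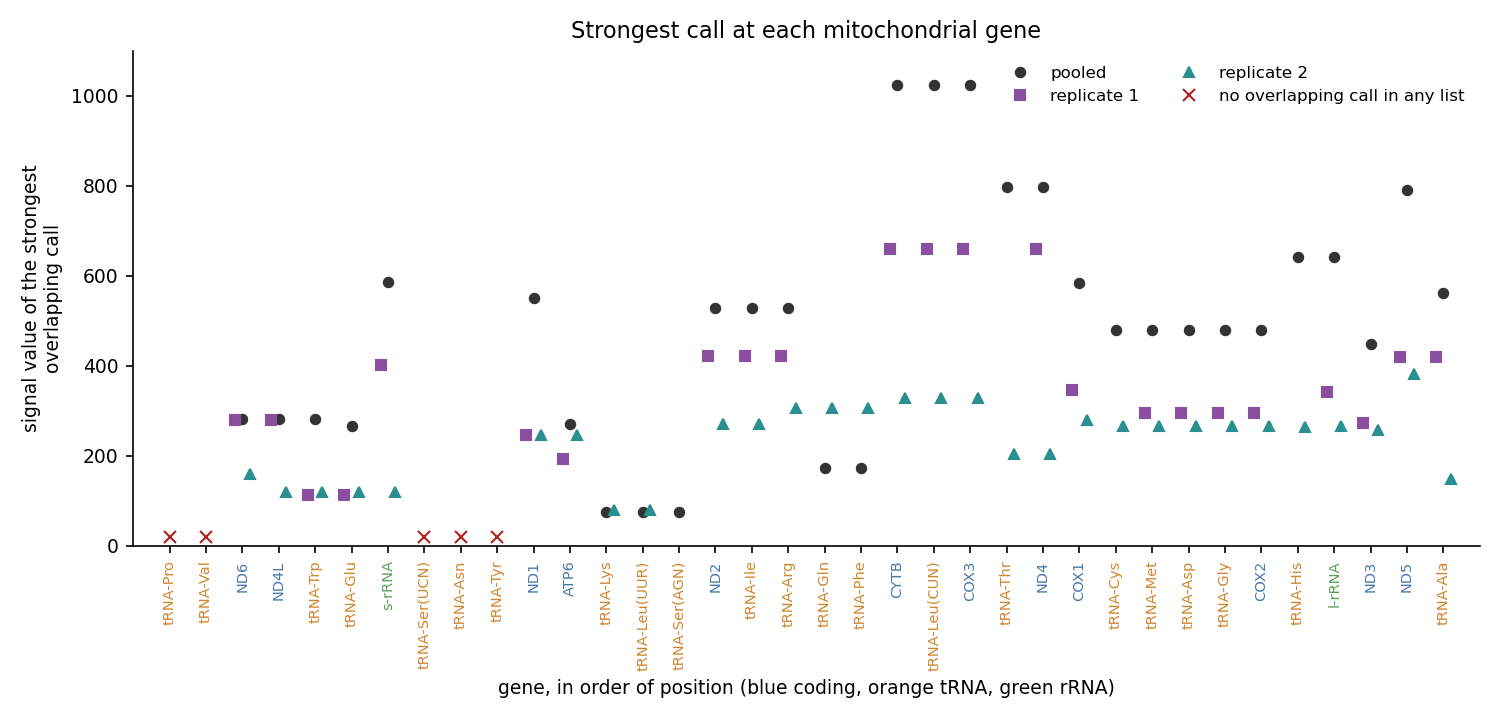
Signal value of the strongest call that overlaps each of the 36 mitochondrial genes, in order of position, in the pooled list (circles), replicate 1 (squares) and replicate 2 (triangles). Neighbouring genes at the same height share a call, the highest pooled points are CYTB, tRNA-Leu(CUN) and COX3 at 1023, and crosses mark, at no value, the 5 tRNA genes without a call in any list.

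Stretches without calls were found in long coding genes as well. The pooled list left 20 stretches free, of which the longest, chrM:8536-9359 (824 bp), lay in the 3′ part of COX1. Next came chrM:5748-6469 (722 bp), nearly all of it COX3, and chrM:11571-12226 (656 bp), from the end of ND3 into ND5. In replicate 1 the longest free stretch, chrM:7923-9523 (1601 bp), also held most of COX1, and in replicate 2 it was chrM:8768-9311 (544 bp), in the same gene. This last stretch was free in all 3 lists and was the longest of 16 such stretches, which came to 3146 bp. The next longest of these were chrM:9995-10369 (375 bp), mostly COX2, and chrM:5002-5328 (327 bp) in CYTB.

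The AT-rich region, chrM:13329-13794, had 1 summit in each list and a fixed free stretch. The summit was at 13748 in the pooled list, at 13748 in replicate 1 and at 13741 in replicate 2, with signals of 201, 145 and 54.3 and ranks of 60, 47 and 117. The position thus differed by at most 7 bp, while the rank in replicate 2 was lower. Calls covered 43.3% of the region in the pooled list, 38.6% in replicate 1 and 37.8% in replicate 2. The middle, chrM:13367-13630 (264 bp), was free of calls in all 3 lists, and it contained no G or C base. It was also repeated in sequence: all 178 words of 36 bases found more than once on the circle began within it, as can be seen in the repeated pattern of the printed sequence. The part of repeated sequence in the lack of calls there was not tested.

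Over the whole circle, that stretch included, calls lay on bases poorer in G and C than the rest. The circle has a GC content of 23.8%. Bases under pooled calls had 21.9% and the others 26.0%; the values were 20.3% and 25.7% in replicate 1, and 23.1% and 25.6% in replicate 2. The difference had the same sign among coding bases, at 22.2% under pooled calls and 27.2% elsewhere, and among rRNA bases, at 19.1% and 27.7%. Among tRNA bases the pooled values were nearly equal, at 25.7% and 25.9%. In replicate 1, however, tRNA bases had 22.1% under calls and 27.8% elsewhere, and in replicate 2 they had 25.4% and 26.6%. In the AT-rich region the difference had the other sign, at 15.8% under pooled calls and 0% elsewhere. Over 68 bins of 200 bp, Spearman's rho between GC content and the share of bases covered was -0.46 in the pooled list, -0.54 in replicate 1 and -0.41 in replicate 2, as a description of bins that share libraries and calls. Between GC content at the summit and the signal of the call, rho was -0.15 over 26 pooled calls, -0.09 over 19 calls of replicate 1 and 0.04 over 29 of replicate 2.

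**Figure D4:**
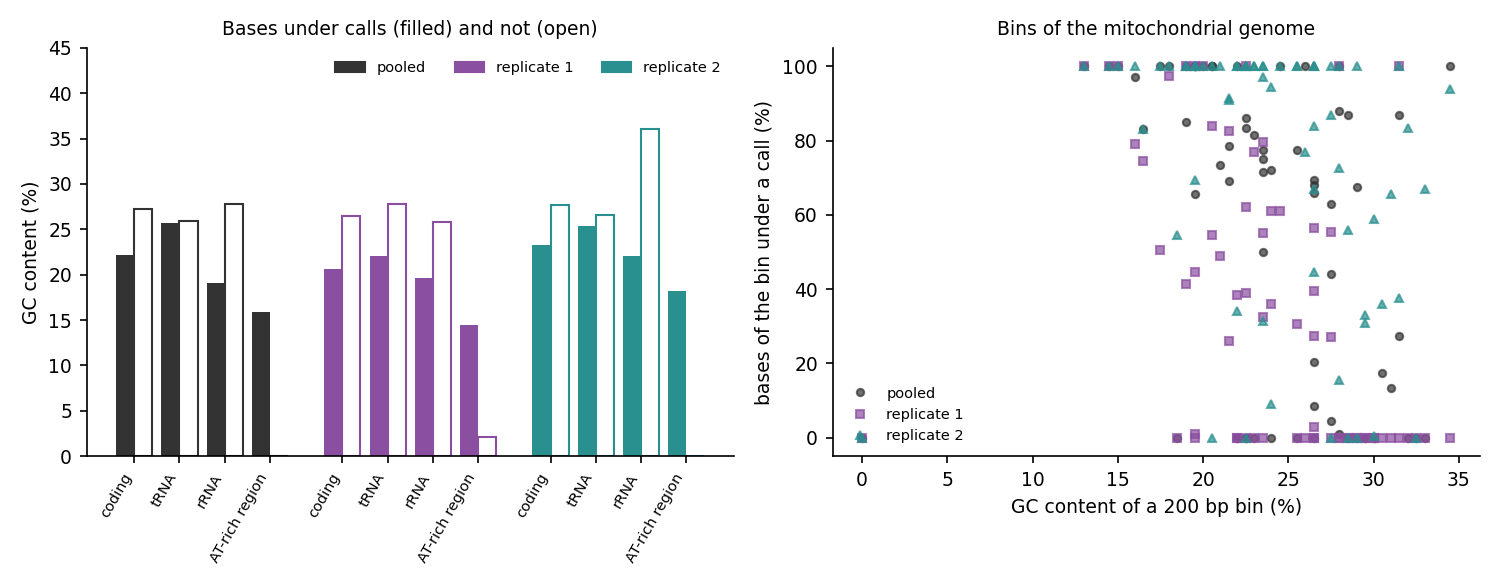
Left, GC content in percent of bases under calls (filled bars) and not under calls (open bars) for each class of sequence in each list. Right, share of bases under a call against GC content for the 68 bins of 200 bp; covered bases have the lower GC content in coding, tRNA and rRNA genes of every list, while the uncovered part of the AT-rich region has 0% in the pooled list and in replicate 2, where the open bar has no height, and 2.10% in replicate 1.

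Base composition at the mitochondrial summits was set beside that at nuclear peaks. In the 200 bp around the summit the GC content was 21.9% ± 4.54 (SD, n = 26 calls) for mitochondrial pooled calls, 42.2% ± 7.92 (SD, n = 235) for nuclear thresholded peaks, and 31.4% ± 6.87 (SD, n = 29739) for the other nuclear pooled calls. Calls are not replicates, so the SD is a spread over sites. The mean over every 200 bp window of the circle was 23.8%, so the mitochondrial summits differed from their own genome by less than from nuclear peaks. An A/T run of at least 12 bases lay within the 100 bp around 23 of 26 pooled mitochondrial summits (88.5%). In replicate 1 it was 17 of 19 (89.5%) and in replicate 2 it was 23 of 29 (79.3%). Beside these stood 64.8% of all such windows of the circle, 16.6% of nuclear thresholded peaks and 42.6% of the other nuclear calls. 4 words of 6 bases, searched on both strands, were taken because earlier results of these data had them at nuclear peaks, and the nuclear shares are given as a description. ACGCAG was in 20.4% of the 100 bp windows at nuclear thresholded peaks, GACGCA, which shares 5 letters with it, in 19.1%, the word CGAGAC in 20.4%, and the word ACCGTA in 18.7%. Each was in 0 of 26 windows at mitochondrial summits. The whole circle holds ACGCAG 1 time, ACCGTA 1 time and the other words 0 times, so few windows of it could hold any.

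How many mitochondrial calls both replicates shared depended on how calls were paired. Of the 26 pooled calls, 17 had a call in each replicate whose centre lay within 200 bp, but the number was 8 at 100 bp and 25 at 500 bp. Several replicate 2 calls share an interval of 971 bp and another spans 972 bp, with centres far from their summits, so centres pair some different summits and miss some like ones. With summits in place of centres, a setting chosen after seeing the data, 11 of the 26 had a summit of each replicate within 50 bp, 5 of replicate 1 only, 8 of replicate 2 only and 2 of neither. Of the 235 nuclear thresholded peaks 165 (70.2%) had both by this measure, beside 42.3% of the mitochondrial calls; by centres within 200 bp it was 232 nuclear peaks. Taken directly between the replicates, 11 of the 19 summits of replicate 1 lay within 50 bp of a replicate 2 summit and 15 within 200 bp.

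At the 11 mitochondrial calls paired by summit, the ratio of the replicate 1 to the replicate 2 signal had a median of 2.01 and ranged from 0.725 to 12.4. It was above 1 at 9 of them. The lowest was in ND2, where summits at 3598 and 3624 had signals of 196 and 271, and the highest was in ATP6, where summits at 2696 and 2691 had 194 and 15.7. Over the 165 nuclear peaks paired the same way the median was 0.809, and replicate 1 had the higher value at 46 (27.9%). Because the signal scale is the caller's, only the contrast between both sets of peaks can be read, and it was not tested. Paired by centres, the medians were 1.29 over 17 mitochondrial calls and 0.794 over 232 nuclear peaks. Replicate summits paired directly with each other also gave 11 pairs, with a median ratio of 2.64.

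**Figure D5:**
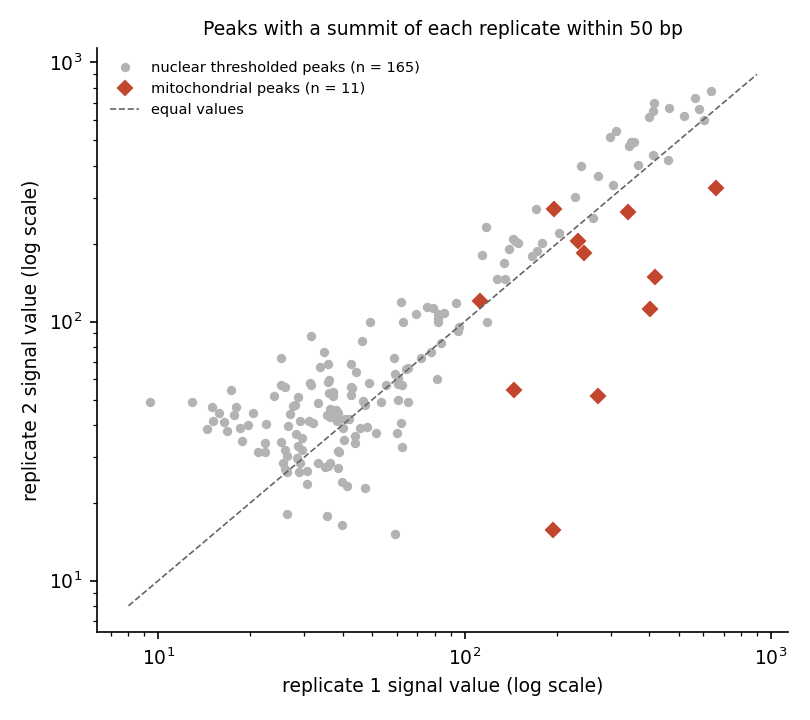
Signal value in replicate 1 against replicate 2, both on log scales, for the 11 mitochondrial calls (diamonds) and the 165 nuclear thresholded peaks (grey points) with a summit of each replicate within 50 bp of the pooled summit; the dashed line marks equal values. Replicate 1 is higher at 9 of the 11 diamonds and at 46 of the 165 grey points.

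Copies of mitochondrial sequence in the nuclear genome were few. Of the 36-base words of the circle, 12 also occurred in the nuclear chromosomes, and blastn found 1 match there, of 126 bp at 96.0% identity, on chromosome X. It corresponds to chrM:4903-5028 in CYTB, which lies for the most part in the stretch of that gene without a pooled call. It had no call in replicate 1, but in replicate 2 the call at chrM:4347-5001 covered most of it.

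A list of nuclear genes for mtDNA upkeep, mitochondrial RNA and matrix protein quality control showed shares of calls near those of all protein-coding genes. Of 12 listed genes 11 were found in the annotation, and 0 had a thresholded summit within 500 bp of the 5′ end, where 1.22% of all protein-coding genes did, so that 0 among 11 sets the list apart in no way. Pooled calls lay within that distance of 3, beside 31.2% of protein-coding genes. These were twnk-1, the mtDNA helicase (signal 32.6, rank 1055), hoe-1, an RNase Z homolog (25.7, rank 3380), and polg-1, the mtDNA polymerase (17.0, rank 16250). The other 8 genes included hmg-5, whose product packages mtDNA, rpom-1, which encodes the mitochondrial RNA polymerase, and the stress transcription factor gene atfs-1. All 3 signals were under the lowest mitochondrial value of the pooled list, 75.7. Every mitochondrial pooled call was in the thresholded set and these 3 calls were not, so this adds little about the genes.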

How the data were processed

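Calls were taken from the lists that the authors deposited for each of 2 biological replicates, for both pooled, and for the thresholded set. Per the deposited file notes, the calls of a list were made from the reads of its replicate, or of the pool, against a common control file, and the thresholded set was drawn from the pooled and replicate lists by the irreproducible discovery rate procedure. Not given in the sources used here: aligner, caller, antibody and threshold. Signal, as deposited, is the caller's own measure and was used to rank calls within a list. The q-value field, as deposited, is a score of unknown scale and served only as an alternative ranking. Per the deposited lists, the summit is given as an offset from the start of the interval.

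From these, overlaps (at least 1 bp), covered bases, free stretches, distances and base composition were computed on ce11, 1-based, with mitochondrial gene coordinates and sequence from RefSeq and all other genes from Ensembl release 115. blastn used an E-value limit of 1e-05 and a word size of 16. Interval functions were tested on simulated data. Depth is unknown, so no precision can be given. 1 group gave no test. All coding and rRNA genes were named, and tRNA genes that held a pooled summit, had no call, or bordered the AT-rich region or a free stretch. The nuclear list held genes for copying, packaging and transcribing mtDNA and processing its RNA, and also matrix protease genes (lonp-1, clpp-1) and the stress factor gene atfs-1. Members and lists were chosen with earlier results of these data known. Tools were blastn 2.17.0 and Python 3.11.15 (matplotlib 3.10.9, scipy 1.17.1, pandas 2.3.3, numpy 2.4.6). 0 columns of per-sample values were left unmapped.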

Additional observations from a re-analysis of the deposited data

How the results depend on the processing

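Of 43 alternative values, 4 of them from settings chosen after seeing the data, 35 stayed within the spread between the replicate lists or within 1.5 times the count. That spread is the SD of the 2 replicate lists, and leaving 1 replicate out gives those same lists. Most such values thus fall within it by construction, and the tally does not measure stability. The covered share of the circle counted as unchanged at 35.5% without replicate 2 and 73.0% without replicate 1, in place of 54.2%. The calls at or above the median signal overlapped 20 genes in place of 31. Calls matched in both replicates fell from 17 to 8 with centres within 100 bp and to 11 with summits within 50 bp. By the deposited q-value field, which ties most of these calls at the top, the median rank was 1 in place of 35.5. The longest free stretch was 544 to 1601 bp with 1 replicate left out (824 bp pooled; 1601 bp without replicate 2). The covered share of the AT-rich region was 37.8% to 38.6% with 1 replicate left out and 31.5% with 200 bp around summits, in place of 43.3%. The cause was not tested. GC content at summits stayed under that of the circle in every alternative tried, by -3.55 to -0.45 percentage points. No paired analysis was possible because there was 1 group. With 2 replicates, unknown depth and lists ended at a fixed number, a stretch without a call says only that none was listed there.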
